A study of Homo sapiens with 6 samples.

Results

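CD24 and 9 other surface genes that are used to tell glioma cell states apart were followed in U87 cells, an established human glioblastoma line. The members were fixed by gene symbol as CD24, PDPN, THY1, CSPG4, MCAM, PROM1, ENG, ALCAM, CD9 and L1CAM, and all 10 were found among the 23290 genes of the deposited table. The tested libraries came from 3 cultures infected with a retrovirus that silences Caspase-8 (shC8), set against 3 cultures infected with a retroviral scramble vector (shCTR), all grown in DMEM with 10% FBS. The cells of both groups were infected, the hairpin sequence was not given in the sources used here, and the design text calls the samples biological replicates without saying how the cultures were separated. P-values therefore measure the spread between these samples.

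Surface glycoproteins of this kind are read by antibodies to sort tumour cells, and several take part in adhesion, migration and contact with immune cells. CD24 and THY1 are small proteins held in the outer membrane leaflet by a glycosylphosphatidylinositol (GPI) anchor, and CD24 is a ligand of the inhibitory immune receptor SIGLEC10. PDPN (podoplanin) is a mucin-type protein that binds the platelet receptor CLEC1B and links to the actin cytoskeleton through ERM proteins. CSPG4 (NG2) is a proteoglycan of oligodendrocyte precursors and pericytes. MCAM, ALCAM and L1CAM are adhesion molecules of the immunoglobulin superfamily, ENG (endoglin) is a co-receptor for TGF-beta family ligands, CD9 is a tetraspanin, and PROM1 (CD133) is a membrane protein widely used to enrich glioma stem-like cells.

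On GRCh38 (GENCODE 29), CD24 lies on the minus strand of chromosome 6, from 106969831 to 106975627. THY1 (119417378 to 119424985) and MCAM (119308529 to 119321521) lie on the minus strand of chromosome 11, 95.9 kb apart. CSPG4 lies on the minus strand of chromosome 15 (75674322 to 75712848) and PDPN on the plus strand of chromosome 1 (13583465 to 13617957). To show the start regions of the gene that changed most, of a further member that rose and of the 1 tested member with a lower mean, the RefSeq promoter windows of CD24, CSPG4 and PDPN are given (GRCh38.p14, 250 bases before to 50 after the start, 5′ to 3′ on the gene's strand). Where a gene had several windows, the one whose start lay nearest to the GENCODE 5′ end is shown. They cover chr6:106975578-106975877 (minus strand), chr15:75712799-75713098 (minus strand) and chr1:13583507-13583806 (plus strand). Capitals mark matches, on either strand, to 6 motifs: the SP1 GC box GGGCGG, the AP-1 site TGANTCA, a kappaB form (GGGNN followed directly by TTTCC), the E box CACCTG bound by SNAI and ZEB factors, the TATA box TATAAA and the TEAD motif GGAATG.
CD24: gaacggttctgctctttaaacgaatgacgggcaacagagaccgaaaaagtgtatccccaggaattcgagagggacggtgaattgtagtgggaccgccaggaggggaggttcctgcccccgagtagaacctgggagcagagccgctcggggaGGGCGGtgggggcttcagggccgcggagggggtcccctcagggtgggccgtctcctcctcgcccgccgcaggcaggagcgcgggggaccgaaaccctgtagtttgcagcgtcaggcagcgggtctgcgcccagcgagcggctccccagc
CSPG4: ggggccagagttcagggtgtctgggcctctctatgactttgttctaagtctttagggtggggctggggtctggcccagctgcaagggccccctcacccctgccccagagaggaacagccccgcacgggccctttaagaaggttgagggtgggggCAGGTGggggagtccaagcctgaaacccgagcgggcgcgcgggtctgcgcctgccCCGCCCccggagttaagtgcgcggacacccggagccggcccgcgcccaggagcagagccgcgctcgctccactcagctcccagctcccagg
PDPN: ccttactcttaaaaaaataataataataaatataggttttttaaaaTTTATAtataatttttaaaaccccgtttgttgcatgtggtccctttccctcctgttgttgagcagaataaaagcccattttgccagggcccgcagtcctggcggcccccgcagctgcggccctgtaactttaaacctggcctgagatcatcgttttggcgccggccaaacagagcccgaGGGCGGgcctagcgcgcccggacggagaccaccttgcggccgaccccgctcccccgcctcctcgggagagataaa
The CD24 window held 1 GC box, the CSPG4 window 1 GC box and 1 E box, and the PDPN window 1 GC box and 1 TATA box. No 2 of these matches overlapped. The GC box was found in 45% of 35116 RefSeq windows, the E box in 20.6% and the TATA box in 11.5%. Neither the AP-1 site (7.71% of windows), the kappaB form (1.91%) nor the TEAD motif (14%) was found in the 3 windows printed. RefSeq windows were matched for 9 of the 10 members, all but THY1. G and C made up 66.7% of the CD24 window, 69.3% of the CSPG4 window and 52% of the PDPN window, where the median window had 58.7%. These matches describe letters in a window and are not evidence of binding.

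Values are FPKM, fragment numbers scaled to transcript length and to the mapped fragments of a library. Absolute depth is unknown, the columns summed to between 489055 and 516634 FPKM, and between 16326 and 17024 genes had a value above 0. Correlations of log2(FPKM + 1) across 11598 genes were 0.984 to 0.988 within groups and 0.968 to 0.981 between groups, with genes that are not independent replicates. CASP8, the silenced gene, averaged 4.43 ± 0.0353 FPKM in shC8 and 14.5 ± 0.937 in shCTR (SD, n = 3 each), 30.6% of the shCTR level, and its log2 change of -1.51 had an SE of 0.0705 (limma adjusted p = 0.000206). For its 3 against 3 libraries the two-sided exact permutation p was 0.1, the smallest this design allows. Among astrocyte markers, GFAP stood at 0.113 to 0.17 FPKM in shC8 and 0.0801 to 0.297 in shCTR and AQP4 was listed at 0 in all 6 libraries, while GJA1 averaged 234 ± 31.3 FPKM in shC8 and 144 ± 25.9 in shCTR. Thus GFAP and AQP4, which define astrocytes, were absent or nearly so. The 7 astrocyte markers summed to 203 to 263 FPKM in shC8 and 127 to 176 in shCTR, where GJA1 rose by 0.70 (limma adjusted p = 0.0289) and SLC1A3 fell by 0.94 (limma adjusted p = 0.00779), and their part in the members' changes was not tested. The GJA1 call held in 2 of 6 fits without 1 library and ended without shC8 2, shC8 3, shCTR 1 or shCTR 3 (limma adjusted p up to 0.102). Lists of 7 oligodendrocyte lineage, 7 endothelial and 6 epithelial markers summed to at most 1.44, 2.56 and 1.45 FPKM in shC8 libraries and at most 1.24, 3.11 and 1.78 in shCTR libraries. Of 10 leukocyte markers only CD68, a lysosomal protein gene also active outside leukocytes, passed 1 FPKM, at 143 ± 7.94 in shC8 and 153 ± 4.19 in shCTR, and AIF1, CD3E and MS4A1 were listed at 0 throughout.

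**Figure D1:**
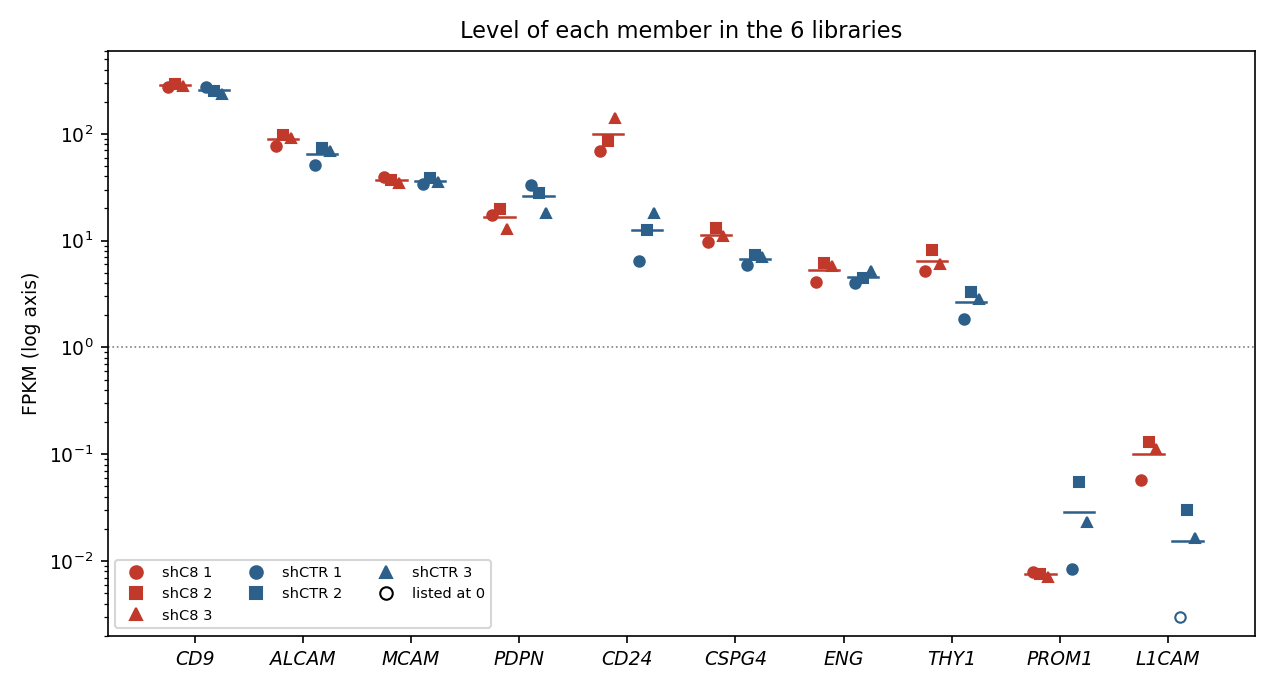
FPKM of the 10 members in each library on a log axis, shC8 (red) left of shCTR (blue), with a bar at each group mean. The symbol gives the library number, the dotted line marks 1 FPKM, and the open circle is L1CAM in shCTR 1, listed at 0. CD24 stood at 68.8 to 142 FPKM in shC8 and at 6.5 to 18.2 in shCTR, while PROM1 and L1CAM stayed under 0.13 in every library.

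The members' levels covered the range from genes listed near 0 to abundant transcripts. In shC8 the order of mean FPKM was CD9, CD24, ALCAM, MCAM, PDPN, CSPG4, THY1, ENG, L1CAM and PROM1. In shCTR it was CD9, ALCAM, MCAM, PDPN, CD24, CSPG4, ENG, THY1, PROM1 and L1CAM. In shC8 the library ranges of CD24 and ALCAM, of PDPN and CSPG4, and of THY1 and ENG overlapped. Within each shC8 library, however, PDPN was above CSPG4 and THY1 was above ENG. Differences between neighbours were not tested. In shCTR only CD24 with CSPG4 and PROM1 with L1CAM overlapped among neighbours. By mean, CD24 was the second in shC8, where its range met that of ALCAM, and the fifth in shCTR, where it met that of CSPG4. Its second place in shC8 rested on shC8 3, with 142 FPKM against 92.2 for ALCAM. ALCAM was above CD24 in shC8 1 (76.2 against 68.8 FPKM) and in shC8 2 (97.3 against 86.1 FPKM). The summed FPKM of the 10 members was 498, 563 and 586 in shC8 1, 2 and 3 and 412, 422 and 393 in shCTR 1, 2 and 3. CD24 supplied 13.8%, 15.3% and 24.2% of that sum in shC8 1, 2 and 3, against 1.58%, 3.01% and 4.63% in shCTR 1, 2 and 3. CD9 supplied 48.1% to 55.6% of it in shC8 and 60.2% to 67% in shCTR.

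CD24, THY1 and CSPG4 rose in shC8, 5 tested members did not pass the test and PROM1 and L1CAM were too low to be tested. The 11598 genes whose 6 libraries averaged 1 FPKM or more were tested, two-sided, by limma on log2(FPKM + 1). A gene was called where the p adjusted over all of them by Benjamini-Hochberg was under 0.05. Fewer cells of a type and less RNA per cell cannot be told apart in such bulk RNA. The 8 tested members averaged at least 1 FPKM in both groups. The 3 rises are 37.5% of the 8, beside 7.14% of all tested genes called higher. Higher calls made up 59.1% of all calls, 49.4% with quantile normalization and 46.2% when libraries were scaled by median of ratios. No member passed as lower with limma, where 4.94% of all genes did, and 1 member (PDPN) was lower at an unadjusted p under 0.05. With the replicate number as a block, 4 members rose and 1 fell, beside 16.1% of all genes called higher and 10.6% called lower. Since the members were chosen with the change of CD24 already known, these shares describe the list and are no test of it. For 5 members (CD24, THY1, CSPG4, ALCAM and CD9) every shC8 library lay above every shCTR library, as it did for 21.7% of all tested genes. No tested member lay wholly lower, as 13.1% of all tested genes did. The median log2 change of the 8 was 0.32, beside 0.04 over all tested genes. Without shC8 3 only CD24 was called among the members, and without shC8 2 CD24 and CSPG4 were. Calls fell over all genes too. The 828 genes called higher were 699, 288 and 261 without shC8 1, 2 and 3, and 327, 367 and 475 without shCTR 1, 2 and 3. The 573 called lower were 647, 286 and 216 without shC8 1, 2 and 3, and 315, 277 and 365 without shCTR 1, 2 and 3. Counts of related lists without 1 library, given below, stand beside these.

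**Figure D2:**
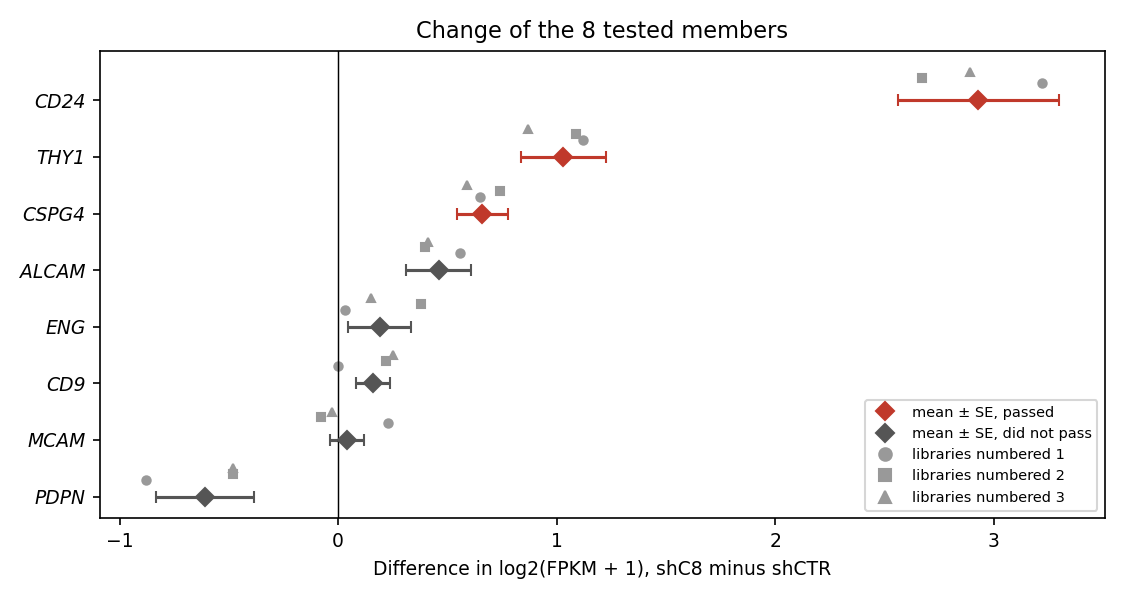
Change of the 8 tested members on the log2(FPKM + 1) scale, shC8 minus shCTR, as the mean with its limma SE (diamonds), with the differences between same-numbered libraries above each in grey. CD24 lay at 2.93, beyond all other members, THY1 at 1.03 and CSPG4 at 0.66, and these 3 passed.

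CD24 was the member with the largest change. It had 68.8, 86.1 and 142 FPKM in shC8 1, 2 and 3, against 6.5, 12.7 and 18.2 FPKM in shCTR 1, 2 and 3. The groups were far apart, since the lowest shC8 library was well above the highest shCTR library, yet libraries within each group differed by more than for any other tested member, by 1.03 in shC8 and 1.36 in shCTR on the log2 scale. The means were 98.8 ± 38 FPKM in shC8 and 12.5 ± 5.85 in shCTR (SD, n = 3 each), 7.93-fold higher. The log2 change was 2.93 (SE 0.369, 95% interval 2.07 to 3.79, limma adjusted p = 0.00498), the third largest rise of the 11598 genes. Same-numbered libraries differed by 3.22, 2.67 and 2.89. The deposited columns of shC8 1, shCTR 1 and shCTR 3 carry numbers of a lower range. Those of shC8 2, shC8 3 and shCTR 2 carry numbers of an upper range. The meaning of the ranges was not stated, and within them the change was 2.54 (lower) and 3.03 (upper). The lower range holds only 1 shC8 library and the upper range only 1 shCTR library, so the ranges differ in part with the groups. With a term for the range the change was 2.78. The call held in each of 14 alternative fits, with changes between 2.56 and 3.23 and adjusted p up to 0.0237.

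Near-identical copies of CD24 could share its reads. Of 3230 words of 50 bases in CD24 transcripts, 4.95% occurred in transcripts of other GENCODE genes, and for CSPG4, which has duplicated pseudogenes, it was 9.1% of 8241 words. The corresponding share was 0.283% for PDPN, 0.585% for MCAM, 0.911% for PROM1 and 5.21% for L1CAM, and no such word was found for THY1, ENG, ALCAM or CD9. Only exact matches on the transcript strand were counted. Copies that differ within a word and opposite-strand overlaps are thus left out of these shares. The part of shared reads in the CD24 and CSPG4 values was not tested. Exons of an opposite-strand gene cover 10.7% of THY1 exonic bases, 6.79% of CSPG4, 6.86% of MCAM, 7.95% of ENG and 4.94% of L1CAM. Exons of a same-strand gene cover 6.04% of L1CAM (U52112.1), 2.23% of PROM1 (FGFBP2) and 0.849% of MCAM (MIR6756). All shared words of L1CAM were with U52112.1 and all those of PROM1 with FGFBP2, so they came from overlapping genes. The libraries were stranded, but the use of strand in counting was not given in the sources used here.

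THY1, the GPI-anchored immunoglobulin-like protein CD90 of fibroblasts, neurons and mesenchymal glioma cells, rose at a low level. It had 5.2, 8.26 and 6.04 FPKM in shC8 1, 2 and 3, against 1.85, 3.34 and 2.86 FPKM in shCTR 1, 2 and 3. The groups did not overlap, and in both of them library 2 was the highest and library 1 the lowest. The means were 6.5 ± 1.58 FPKM in shC8 and 2.68 ± 0.76 in shCTR (SD, n = 3 each), 2.42-fold higher, and the log2 change was 1.03 (SE 0.194, limma adjusted p = 0.0177). Its change was 0.9 in the lower and 0.9 in the upper range of column numbers, and 0.9 with a term for the range (limma adjusted p = 0.0185). The call ended without shC8 2 (adjusted p = 0.0531), without shC8 3 (adjusted p = 0.0603) and with no filter on low values (adjusted p = 0.054), all by limma, while with the replicate block the adjusted p was 0.00158.

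CSPG4 rose as well. It had 9.8, 13 and 11 FPKM in shC8 1, 2 and 3, against 5.9, 7.39 and 6.98 FPKM in shCTR 1, 2 and 3. Again the groups did not overlap and library 2 was the highest of each group. The means were 11.3 ± 1.62 FPKM in shC8 and 6.76 ± 0.772 in shCTR (SD, n = 3 each), 1.67-fold higher, and the log2 change was 0.66 (SE 0.117, limma adjusted p = 0.0149). In the lower range of column numbers it was 0.54 and in the upper range 0.63, and 0.58 with a term for the range (limma adjusted p = 0.0165). Without shC8 3 its limma adjusted p was 0.0561. Of other pericyte markers, PDGFRB rose by 0.54 (limma adjusted p = 0.0132) and ABCC9 fell by 0.61 (limma adjusted p = 0.0121). Both of these calls also ended without shC8 3, with limma adjusted p = 0.0502 for PDGFRB and 0.0522 for ABCC9. ACTA2 was at 10.1 ± 1.36 FPKM in shC8 and 10.2 ± 2.22 in shCTR. The 7 pericyte markers summed to 23.2 to 25 FPKM in shC8 and 23.7 to 28.2 in shCTR, and DES was at 0.199 FPKM or less. Their part in the CSPG4 result was not tested.

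PDPN, a marker of mesenchymal and astrocyte-like glioma cells, was the only member with a lower mean among those tested, and it did not pass the main test. It had 17.4, 19.7 and 12.8 FPKM in shC8 1, 2 and 3, against 32.9, 27.8 and 18.3 FPKM in shCTR 1, 2 and 3. The groups overlapped, because shCTR 3 lay below shC8 2, while each shC8 library was below the shCTR library of the same number. The means were 16.6 ± 3.52 FPKM in shC8 and 26.3 ± 7.42 in shCTR (SD, n = 3 each), and the log2 change was -0.61 (SE 0.224, limma adjusted p = 0.118). With the replicate block it passed (SE 0.0913, limma adjusted p = 0.00759), and it also passed without shCTR 3, at -0.85 (limma adjusted p = 0.0416). Same-numbered libraries differed by -0.88, -0.48 and -0.48, and the change was -0.47 in the lower and -0.77 in the upper range.

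Among the adhesion molecules, ALCAM (CD166), which binds itself and the lymphocyte receptor CD6, was higher in mean but did not pass the main test. It had 76.2, 97.3 and 92.2 FPKM in shC8 1, 2 and 3, against 51.2, 73.4 and 69.1 FPKM in shCTR 1, 2 and 3. The lowest shC8 library stood just above the highest shCTR library. The means were 88.6 ± 11 FPKM in shC8 and 64.6 ± 11.8 in shCTR (SD, n = 3 each), and the log2 change was 0.46 (SE 0.148, limma adjusted p = 0.0853). Of the alternatives run, only the replicate block brought it past the threshold (limma adjusted p = 0.00394). MCAM (CD146), an adhesion molecule of melanoma and vessel wall cells, had 39.6, 36.7 and 34.8 FPKM in shC8 1, 2 and 3, against 33.7, 38.9 and 35.5 in shCTR 1, 2 and 3. Its groups overlapped, with a log2 change of 0.04 (SE 0.0778, 95% interval -0.14 to 0.22, limma adjusted p = 0.778) and a sign that turned to -0.01 without shC8 1 or without shCTR 1. Thus the neighbours THY1 and MCAM on chromosome 11 stood at 1.03 and 0.04; the difference between these 2 changes was not tested.

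L1CAM, a neural adhesion molecule, was close to absent. It was at 0.0576, 0.129 and 0.112 FPKM in shC8 1, 2 and 3, and at 0, 0.03 and 0.0166 FPKM in shCTR 1, 2 and 3. Every shC8 library was above every shCTR library, at levels too low for the filter, and no fold is given because a shCTR library is listed at 0. Without a filter on low values its log2 change was 0.11 (SE 0.0283, limma adjusted p = 0.0788). PROM1 was lower still, at 0.00794, 0.00749 and 0.00715 FPKM in shC8 1, 2 and 3, and at 0.00836, 0.0549 and 0.0233 FPKM in shCTR 1, 2 and 3. The shCTR libraries were all above the shC8 libraries, shCTR 1 only narrowly. On the log2(FPKM + 1) scale the difference of the group means was -0.03, and without the filter the limma adjusted p was 0.429. At these values neither gene can be said to differ between the groups.

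ENG and CD9 did not pass. ENG had 4.11, 6.13 and 5.85 FPKM in shC8 1, 2 and 3, against 4, 4.48 and 5.18 FPKM in shCTR 1, 2 and 3, with overlapping groups and a change of 0.19 on the log2 scale (SE 0.143, 95% interval -0.15 to 0.52, limma adjusted p = 0.422). Within the lower range of column numbers its change was -0.12 and within the upper range 0.35. CD9 was the most abundant member, above 97.7% of tested genes in mean FPKM. It had 277, 296 and 282 FPKM in shC8 1, 2 and 3, against 276, 254 and 237 FPKM in shCTR 1, 2 and 3. The groups nearly met at shC8 1 and shCTR 1, and the log2 change was 0.16 (SE 0.0769, 95% interval -0.02 to 0.34, limma adjusted p = 0.219).

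The genes whose profile was most like that of CD24 came from unlike families. Likeness was the root mean square difference, over the 6 libraries, of log2(FPKM + 1) values centred on each gene's mean. The 5 nearest were CALCB, which encodes a calcitonin gene-related peptide (0.44), the long noncoding RNA UCA1 (0.48), the metalloprotease inhibitor gene TIMP3 (0.49), BAMBI, which encodes a pseudoreceptor for TGF-beta family ligands (0.57), and the carboxypeptidase gene CPA4 (0.61). Each stood higher in every shC8 library than in every shCTR library, which a measure built on these libraries largely fixes. BAMBI had 6.03, 7.94 and 17.1 FPKM in shC8 1, 2 and 3, against 1.05, 1.34 and 3.64 in shCTR 1, 2 and 3. Like CD24, BAMBI was highest in library 3 of both groups, while TIMP3 and CPA4 were highest in library 2 of both. CALCB and UCA1 were highest in shC8 3 and reached the filter only through shC8, with means of 5.93 and 4.92 FPKM. In shCTR 1, 2 and 3 CALCB had 0, 0.237 and 0.81 FPKM and UCA1 had 0.0827, 0.0165 and 0.207. At such levels their order among the shCTR libraries is not read.

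**Figure D3:**
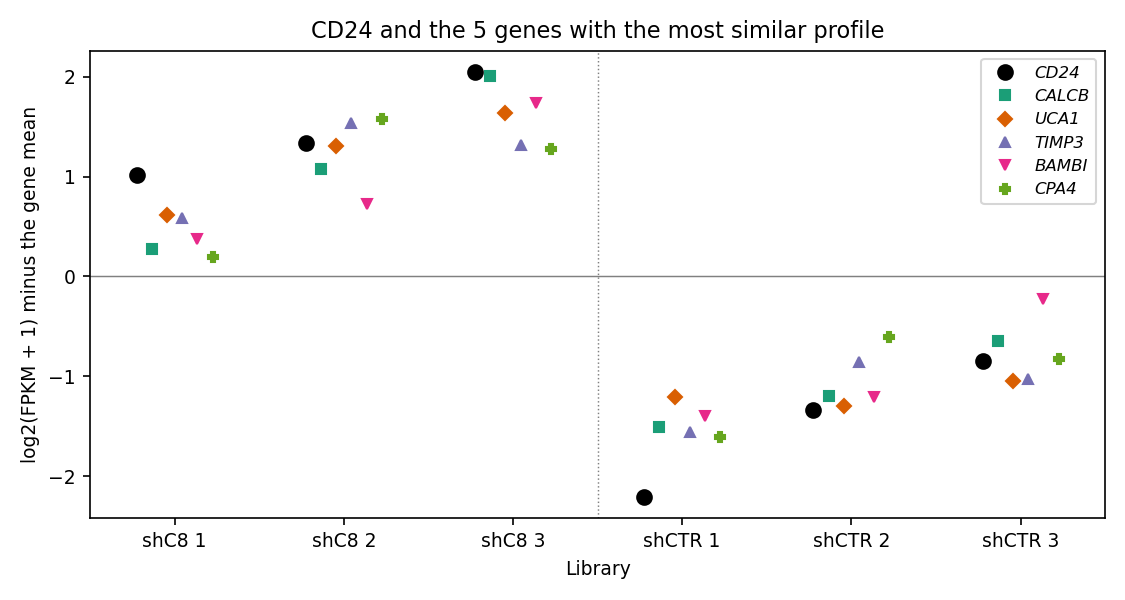
log2(FPKM + 1) of CD24 (black) and the 5 genes nearest to it, each minus its own mean over the 6 libraries, shC8 libraries left of shCTR libraries. All 6 genes lie above 0 in shC8 and below 0 in shCTR, and CD24 has the widest span.

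Surface genes of lists related to the members moved in both directions. CD44, a receptor for hyaluronan that binds PDPN, fell to 269 ± 21.7 FPKM in shC8, against 366 ± 3.6 in shCTR (SD, n = 3 each), a log2 change of -0.45 (limma adjusted p = 0.0131). The TGF-beta receptor gene TGFBR1, whose signalling ENG modulates, fell by 0.65, and RDX (radixin), an ERM protein, fell by 0.49, while the integrin gene ITGAV rose by 0.48. EZR (ezrin), the other ERM gene that passed, rose by 0.33 and was named after its values were seen. Of 15 tested partner and receptor genes of the members, 2 rose and 3 fell, beside 7.14% and 4.94% of all genes, with a median of -0.07, and with the replicate block 3 rose and 5 fell, beside 16.1% and 10.6% of all genes. Without shC8 2, RDX did not pass (limma adjusted p = 0.0604) and 1 rose. One rise was also left without shC8 3, without shCTR 1 or without shCTR 2. SIGLEC10 and CLEC1B were not among the tested genes.

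Of the tetraspanins and their partner proteins, more genes rose than fell. PTGFRN, a protein that binds CD9 and CD81 directly, had 62.5, 60.3 and 60.6 FPKM in shC8 1, 2 and 3, against 40.7, 42.8 and 45.3 FPKM in shCTR 1, 2 and 3. The groups did not overlap, and its log2 change of 0.50 (limma adjusted p = 0.00474, SE 0.062) passed in 6 of 6 fits without 1 library. TSPAN1 rose by 0.70 at a level under 3 FPKM, TSPAN4 rose by 0.51, and CD82, a metastasis suppressor in other tumours, fell to 47.2 ± 7.17 FPKM in shC8, against 83 ± 16.9 in shCTR, by 0.79. Of the 19 tested genes, which include CD9, 7 rose and 1 fell, beside 7.14% and 4.94% of all genes. CD9 was not among the 7. The median of the list was 0.24, beside 0.04 over all genes. The calls of TSPAN1 and TSPAN4 held in 2 of 6 fits without 1 library and ended without shC8 2, shC8 3, shCTR 1 or shCTR 3. The 7 rises became 1 without shC8 2, without shC8 3 or without shCTR 1, 3 without shCTR 2 or without shCTR 3, and 4 with no filter. Over all genes, the 828 rises became 288 without shC8 2, 261 without shC8 3, 327 without shCTR 1 and 576 with no filter. CD82 lost its call without shC8 1, shC8 3, shCTR 1 or shCTR 2, with limma adjusted p up to 0.0924.

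Of 21 tested immunoglobulin superfamily adhesion genes, among them the members THY1, ALCAM and MCAM, 7 rose, beside 7.14% of all genes. Without these members, 6 of 18 rose. None passed as lower by limma, beside 4.94% of all genes, and 2 were lower at an unadjusted p under 0.05. Nectin-2 (PVRL2 in the table) rose by 0.50, the junction gene F11R by 0.45, CADM1 by 0.42 and the T-cell ligand gene CD58 by 0.30. ICAM1 had a larger change, of -0.85, but its groups overlapped and it did not pass (limma adjusted p = 0.137). With the replicate block ICAM1 passed as lower (limma adjusted p = 0.00242). The list's median was 0.18, and 0.16 without the members, beside 0.04 over all genes. With the replicate block 10 rose and 1 fell, beside 16.1% and 10.6% of all genes. Without the members, 8 of 18 rose and 1 fell with the block. The 7 rises were 4 with quantile normalization and 5 with libraries scaled by median of ratios. They were 4 with a term for the column range and 2 with no filter. Over all genes, rises fell from 828 to 288 without shC8 2 and to 261 without shC8 3. In this list, leaving out 1 library left 3 rises without shC8 1, 1 without shC8 2 or shC8 3, 4 without shCTR 1 and 3 without shCTR 2 or shCTR 3. Of the 4 rising genes named, only F11R passed in each of the 6 such fits. PVRL2 passed in 2 of 6, CADM1 in 1 of 6 and CD58 in 0 of 6. CADM1 also did not pass with quantile normalization (limma adjusted p = 0.0551) or with a term for the column range (limma adjusted p = 0.0535).

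Other genes of GPI-anchored surface proteins moved in both directions. NT5E (CD73), an enzyme that makes adenosine, fell to 220 ± 36.1 FPKM in shC8, against 363 ± 52.1 in shCTR (SD, n = 3 each), a log2 change of -0.72 (limma adjusted p = 0.02), and PLAUR, the urokinase receptor gene, fell by 0.49. The glypican gene GPC1 rose by 0.69 and the ephrin gene EFNA4 by 0.54. Of 19 tested genes, 2 rose and 4 fell, beside 7.14% and 4.94% of all genes, with a median of -0.14, beside 0.04. With the replicate block 4 rose and 7 fell, beside 16.1% and 10.6% of all genes. PLAUR and EFNA4 lost their calls without shC8 3 (limma adjusted p = 0.0595 and 0.052). The 4 falls were 2 with no filter or without shC8 2, 0 without shC8 3 (limma) and 1 without shCTR 2 or without shCTR 3, and the 2 rises were 1 without shC8 3. Over all genes, the 573 falls were 286 without shC8 2, 216 without shC8 3, 277 without shCTR 2 and 365 without shCTR 3. NT5E, which together with THY1 and ENG makes up the usual surface panel of mesenchymal stromal cells, thus fell where THY1 rose and ENG did not pass. NT5E lost its call without shC8 3, shCTR 2 or shCTR 3, with limma adjusted p up to 0.08.

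**Figure D4:**
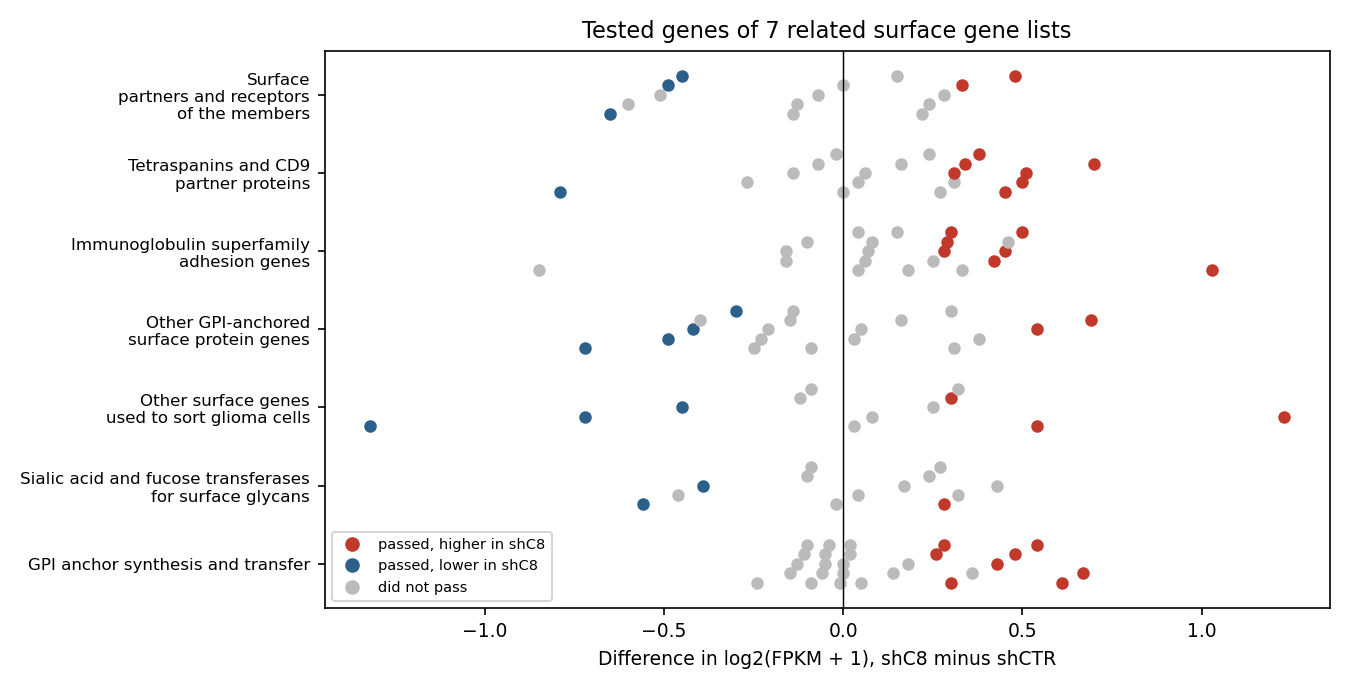
log2 change of every tested gene of the 7 related lists (1 point per gene, vertical offsets only for legibility), coloured by whether it passed as higher (red) or lower (blue) in shC8. Passing genes of the GPI anchor synthesis list all lie to the right of 0 (1 fell under median-of-ratios scaling), while the other GPI-anchored genes have 2 on the right and 4 on the left.

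The machinery that builds and attaches GPI anchors rose where it passed, apart from 1 gene that fell under median-of-ratios scaling. GPAA1, a subunit of the transamidase that joins anchor and protein, had 42.4, 41 and 39.9 FPKM in shC8 1, 2 and 3, against 25.6, 24.8 and 29.3 FPKM in shCTR 1, 2 and 3. The groups did not overlap, and the log2 change was 0.61 (SE 0.0758, limma adjusted p = 0.00473). PIGQ, of the complex that starts anchor synthesis, rose by 0.67, PIGS, another transamidase subunit, by 0.54, and PIGN, which adds ethanolamine phosphate to the anchor, by 0.48. Of 27 tested genes, 8 rose, beside 7.14% of all genes. None passed as lower by limma, beside 4.94% of all genes, and 1 was lower at an unadjusted p under 0.05. The list's median was 0.02, beside 0.04 over all tested genes, and 19 genes did not pass. Over all genes, rises fell from 828 to 288 without shC8 2 and to 261 without shC8 3. The 8 rises of the list were 3 without shC8 2 or shC8 3, 5 without shCTR 1, 4 without shCTR 2 or shCTR 3 and 6 without shC8 1. GPAA1, PIGQ and PIGN passed in each of these 6 fits, while PIGS did not without shC8 2 or shC8 3 (limma adjusted p up to 0.0776).

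Further surface genes used to sort glioma cells were split. IL13RA2, a receptor used as a glioma therapy target, had 31.1, 28.8 and 26.4 FPKM in shC8 1, 2 and 3, against 82.2, 74 and 64.2 FPKM in shCTR 1, 2 and 3, and fell by 1.32 on the log2 scale (limma adjusted p = 0.00121, SE 0.103). ITGA6, a laminin receptor subunit used to enrich stem-like cells, had 6.13, 8.58 and 7.58 FPKM in shC8 1, 2 and 3, against 2.29, 3 and 2.47 FPKM in shCTR 1, 2 and 3, and rose by 1.23 on the log2 scale (limma adjusted p = 0.00275, SE 0.128). For both genes the groups were far apart and the call held in each of the 6 fits without 1 library. Of 12 tested genes, 3 rose and 3 fell, beside 7.14% and 4.94% of all genes, the others being PDGFRB, TNFRSF12A, CD44 and NT5E. The 3 rises were 1 without shC8 3.

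A list of surface glycan transferases, mainly for sialic acid and fucose, had 13 tested genes and a median of 0.04. Which of them act on CD24 was not tested. ST3GAL1 fell by 0.56 (limma adjusted p = 0.0219), FUT8 fell by 0.39 (limma adjusted p = 0.0255) and ST3GAL2 rose by 0.28 (limma adjusted p = 0.0411). The 1 rise and 2 falls stand beside 7.14% and 4.94% of all genes. With the replicate block 3 rose and 2 fell, beside 16.1% and 10.6%. The rise of ST3GAL2 held in 0 of 6 fits without 1 library and ended under quantile normalization (limma adjusted p = 0.051). The 2 falls were 1 with no filter, without shC8 2 or without shCTR 3 and 0 without shC8 3 or without shCTR 2 (limma).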

How the data were processed

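The values are FPKM that the authors deposited, 1 for each gene symbol in each library; TopHat, Cufflinks, Cuffdiff and the build hg38 are named, without roles or versions, per the submitters' processing notes. Stranded total RNA libraries were prepared after a ribosomal depletion step, per the labels' protocols. Neither the annotation nor a scaling step is given in the sources used here. Because FPKM is relative to a library's total, a change in abundant genes shifts all others, and no counts or counting intervals can be had.

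All 6 columns were used. Genes averaging 1 FPKM or more were tested on log2(FPKM + 1) with limma 3.58.1 (R 4.3.3), moderated with a mean trend, without a block, with Benjamini-Hochberg adjustment over 11598 genes. This scale makes the changes of low genes too small, whereas a ratio given as "-fold" divides 2 group means in FPKM. The fit was first tested on simulated data.

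Replicate numbers occur in both groups, and deviations from the group means of same-numbered libraries correlated across genes at 0.397, 0.266 and 0.291, which, from the data, meets the threshold of 0.1 for numbers that pair samples. The calls reported are from the fit without the block, which leaves this pairing out. The blocked value is given beside a result where it changes a call or moves a count by over 1.5 times. With the block the SE fell from 0.224 to 0.0913 for PDPN and from 0.148 to 0.0527 for ALCAM. Alternatives were a pseudocount of 0.1, no filter, a minimum of 5 FPKM, the replicate block, quantile normalization, no trend, scaling by median of ratios, a term for the column number range, and each library left out.

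The members and lists were chosen with earlier results of these data known. Named genes are all members, CASP8, the 5 nearest profiles to CD24, up to 4 passing genes of largest change per related list and the 2 most abundant per marker list, and other names were chosen after their values were seen. Of 250 list symbols, 236 matched the table as written and 6 through an older symbol. The 8 unmatched, mitochondrial messenger RNAs, were not analysed here. Neuron markers were led by SNAP25, at 15.1 ± 0.913 FPKM in shC8 and 17.2 ± 1.43 in shCTR.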

Additional observations from a re-analysis of the deposited data

How the results depend on the processing

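CD24 and CASP8 kept direction and call in all 14 alternatives, CSPG4 in 13 and THY1 in 10 of 13. THY1 at 1.03 did not pass with no filter. With the replicate block PDPN (-0.61) and ALCAM (0.46) passed and 1 member was called lower, with 1862 genes called higher and 1224 lower. Over fits without 1 library, THY1 lay between 0.85 and 1.16, CSPG4 between 0.56 and 0.75, PDPN between -0.85 and -0.44 and MCAM between -0.01 and 0.09, members called higher between 1 and 3 and lower between 0 and 1, and genes called higher between 261 and 699 and lower between 216 and 647. THY1 and ENG were under the minimum of 5 FPKM, and PROM1 and L1CAM could be fitted only with no filter. The median change of all genes was 0.04, and 0.004 with quantile values and 0.003 with libraries scaled by median of ratios. The block changed no other call of a member. Counts in the 7 related lists stayed within 1.5 times in 141 comparisons with an alternative and moved further in 55, and the cause was not tested. FPKM gives no depth, so no counting error can be given for levels such as those of PROM1 and L1CAM.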
